A study of Mus musculus with 6 samples.

Results

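Glycolysis is carried out by a chain of enzymes, and the genes for 10 of them were followed here in mouse multiciliated ependymal cells with and without Edf1. The genes were Hk1, Hk2, Gpi1, Pfkl, Pfkp, Aldoa, Pgk1, Eno1, Pkm and Ldha, taken by symbol from a table of read counts, and all 10 were found among its 22851 genes. All 10 also passed the filter on low counts, which left 14243 genes for testing.

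Radial glial cells, the neural progenitors of the ventricle wall, were taken from brains of C57BL/6J mice at postnatal days 0 to 3 and kept in medium with 10% fetal bovine serum (FBS). Removal of the serum for 6 days then induced their differentiation into multiciliated ependymal cells, the ciliated lining of the brain ventricles. One group was wild type (WT) and the other came from Edf1 knockout (KO) mice made with CRISPR/Cas9, and both groups had the same serum withdrawal. Each genotype had 3 libraries, given as biological replicates, and the comparison asks which genes depend on Edf1, a transcriptional coactivator that also acts at stalled ribosomes, while these cells form. The labels do not say which part of Edf1 was edited, how many animals or litters were used, or whether cells were pooled, so p-values measure the spread between these libraries.

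In glycolysis, hexokinases trap glucose in the cell as glucose 6-phosphate, phosphofructokinases commit the sugar to breakdown, and aldolase splits it into triose phosphates. The later enzymes recover ATP, and lactate dehydrogenase interconverts pyruvate and lactate. Most steps have several isozymes from separate genes, and in the brain astrocyte-like glia are known for high glycolytic capacity and for the isozyme Aldoc.

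Total counts per library ranged from 13071766 to 28087006, with WT replicate 2 the lowest. Edf1 itself measured 82.6, 85.8 and 80.1 CPM (counts scaled to a common library size after TMM adjustment) in the WT libraries and 9.83, 10.9 and 13.2 CPM in the KO libraries, a log2 fold change of -2.85 ± 0.091 (SE). Across all tested genes, 26.9% were called at an adjusted p under 0.05, with 12.7% called higher and 14.2% called lower in the KO. The cultures are mixed by their markers, and the mix differed between the genotypes. All 15 motile cilia genes were detected and all 15 fell in the KO, with a summed level of 3391 to 3516 CPM in WT and 2006 to 2184 CPM in KO libraries. Of 12 microglia genes 11 fell (2069 to 2209 CPM summed in WT, 1371 to 1405 CPM in KO). Of 11 tested fibroblast, mural and endothelial genes 9 rose and 1 fell (905 to 958 CPM in WT, 1185 to 1307 CPM in KO), with Cldn5, a defining endothelial gene, at 3 counts or fewer in every library. The radial glia and astrocyte genes had 3 of 14 higher and 3 lower, and summed to 24854 to 27446 CPM in WT and 23076 to 23449 CPM in KO. In bulk RNA, fewer cells of a type and less RNA per cell cannot be told apart, and the part of these shifts in the enzyme values below was not tested.

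Of the 10 enzyme genes, 1 rose and 1 fell in the KO, and both encode hexokinases. Hk1 was 10.2% higher and Hk2 18.2% lower, while the 8 genes for the later steps did not pass the test. The share called, 20%, can be read against the 26.9% called among all tested genes. Fold changes were positive for 5 genes and negative for 5, and their median log2 fold change was -0.0068, beside 0.0029 over all tested genes. The groups did not overlap for 3 of the 10 genes (30%), against 43.3% of all tested genes. Every one of the 8 genes that missed the threshold had a 95% confidence interval that lay between a fall of 12.4% and a rise of 17.1%, so larger changes of the fitted level lay outside these intervals.

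**Figure D1:**
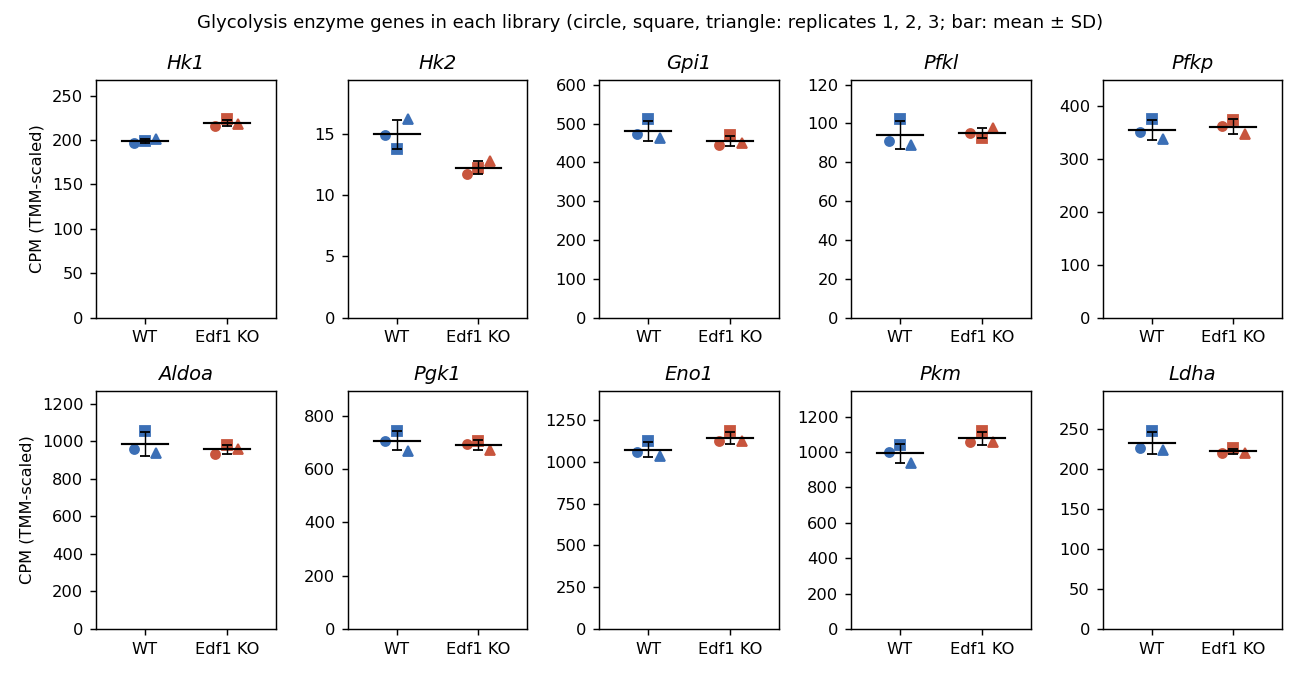
Level of each of the 10 enzyme genes in each library (CPM on TMM-scaled library sizes, linear axes from 0), with WT and Edf1 KO side by side, 1 marker per replicate and a bar for the mean ± SD (n = 3 per genotype). The groups are apart for Hk1, Hk2 and Pkm and overlap for the other 7 genes.

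Levels were compared between genes per kilobase of transcript. Several of the genes share sequence with other genes, as given below, and how such reads were counted is not known. The order is therefore that of the deposited counts, and small SDs do not show that it is free of lost or misplaced reads. The same limit holds for the isozyme shares of aldolase, enolase and lactate dehydrogenase. In the WT libraries the order by mean was Aldoa (651 ± 41.9 CPM per kb, SD, n = 3), Eno1 (530 ± 23.1), Pkm (408 ± 21.5), Pgk1 (388 ± 20.4), Gpi1 (167 ± 8.90), Ldha (131 ± 7.59), Pfkp (85.6 ± 4.58), Hk1 (51.7 ± 0.52), Pfkl (25.2 ± 1.89) and Hk2 (2.72 ± 0.22). Pkm and Pgk1 were the only neighbours in this order whose WT libraries overlapped. The KO libraries gave the same order, with no overlap between neighbours. Counts per library ranged from 178 for Hk2 to 31780 for Eno1. The 10 genes together measured 5081, 5417 and 4907 CPM in WT and 5157, 5394 and 5157 CPM in KO libraries. The means, 5135 ± 259 and 5236 ± 137 CPM (SD, n = 3 each), differed by 101 CPM, less than the SD of the WT libraries (exact permutation test, two-sided, p = 0.6, where 3 libraries against 3 cannot give less than 0.1). Without WT replicate 3 that difference changed sign, to -12.7 CPM.

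The first step is carried out by Hk1 and Hk2. Hk1, the hexokinase of brain that binds mitochondria, lies on the minus strand of chromosome 10 (GRCm38, 62268855 to 62379908). Hk2, a hexokinase known for its induction in growing and low-oxygen cells, lies on the minus strand of chromosome 6 (82725025 to 82774454). Their opening coding sequences are shown as a description only. In the first 60 coding bases of the GENCODE M21 transcripts the 2 genes differ at 47 positions, which are in capitals. The bases were compared position by position, and whether the 2 stretches correspond to each other was not tested. The count therefore does not show how readily reads of the 2 genes are told apart. Counts per gene do not tell which Hk1 start these cells use. The printed Hk1 sequence may be neither the form in use nor the form that binds mitochondria. The 47 differences hold for the chosen transcripts alone.
Hk1: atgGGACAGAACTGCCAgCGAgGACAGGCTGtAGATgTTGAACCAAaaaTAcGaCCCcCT
Hk2: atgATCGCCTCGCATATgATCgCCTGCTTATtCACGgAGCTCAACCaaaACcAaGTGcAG

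Hk1 measured 197, 199 and 201 CPM in the WT libraries and 216, 223 and 218 CPM in the KO libraries. Every KO library was above every WT library, and the spread within each genotype was small (SD 2.02 and 3.64 CPM, n = 3 each). The log2 fold change was 0.14 ± 0.045 (SE, edgeR quasi-likelihood test, adjusted p = 0.0366), with a 95% interval of 0.042 to 0.24. Hk2 measured 14.9, 13.8 and 16.2 CPM in WT and 11.7, 12.3 and 12.8 CPM in KO libraries. Here every KO library was below every WT library, with means of 14.98 ± 1.19 and 12.3 ± 0.52 CPM (SD, n = 3). The log2 fold change of Hk2 was -0.29 ± 0.095 (SE, edgeR, adjusted p = 0.0396, 95% interval -0.50 to -0.084). Both calls were close to the threshold. Each was lost when any single library other than WT replicate 2 was left out, with adjusted p = 0.053 to 0.137 for Hk1 and 0.0749 to 0.137 for Hk2, and DESeq2 did not call Hk2 (adjusted p = 0.0842). The share of Hk2 in the counts per kilobase of both genes was 5.03, 4.62 and 5.34% in WT and 3.65, 3.69 and 3.92% in KO libraries. These shares did not overlap, and their difference of -1.24 percentage points gave the smallest p that 3 against 3 allows (exact permutation test, two-sided, p = 0.1, adjusted p = 0.14 over the 7 isozyme shares tested).

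Of the other glucose kinases, Hkdc1, a hexokinase-like gene beside Hk1 on chromosome 10, fell from 3.21 ± 0.43 to 1.46 ± 0.24 CPM (SD, n = 3). Its WT libraries measured 3.50, 2.72 and 3.40 CPM and its KO libraries 1.35, 1.28 and 1.73 CPM, which is 22 to 93 counts per library (log2 fold change -1.13 ± 0.22 SE, edgeR adjusted p = 0.00243). Hk3, a hexokinase of myeloid cells, measured 13.5 ± 1.39 and 12.2 ± 0.52 CPM and did not pass the test (log2 fold change -0.16, edgeR adjusted p = 0.270). Adpgk, a kinase that uses ADP in place of ATP, measured 18.8 ± 2.005 and 22.2 ± 0.57 CPM (log2 fold change 0.23, edgeR adjusted p = 0.0778, or 0.0269 with the GC and length correction).

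Gpi1, which turns glucose 6-phosphate into fructose 6-phosphate, lies on the minus strand of chromosome 7 (34201330 to 34230336). It measured 473, 511 and 462 CPM in WT and 444, 470.2 and 451 CPM in KO libraries (log2 fold change -0.08 ± 0.050 SE, edgeR adjusted p = 0.249). The groups overlapped in a single pair, since KO replicate 2 lay above WT replicate 3. Phosphofructokinase, the committing step, has 3 genes, named for liver (Pfkl), platelet (Pfkp) and muscle (Pfkm). Pfkl lies on the minus strand of chromosome 10 (77986947 to 78010083) and Pfkp on that of chromosome 13 (6579768 to 6648777). Pfkl measured 91.0, 102 and 89.0 CPM in WT and 95.3, 92.5 and 97.7 CPM in KO libraries (log2 fold change 0.02, edgeR adjusted p = 0.843). Pfkp measured 351, 375 and 338 CPM in WT and 362, 375 and 348 CPM in KO libraries (log2 fold change 0.03, edgeR adjusted p = 0.729). For both genes the KO libraries lay inside the WT range. Pfkm measured 314 ± 7.18 and 299 ± 2.22 CPM (SD, n = 3), did not overlap between the groups, and did not pass the test (log2 fold change -0.07, edgeR adjusted p = 0.269). By counts per kilobase Pfkm made up 49.6 ± 0.90% of the step in WT and 48.0 ± 0.42% in KO, Pfkp 38.9 ± 0.56% and 40.2 ± 0.90%, and Pfkl 11.5 ± 0.39% and 11.8 ± 0.49%. The Pfkm share did not overlap (exact permutation p = 0.1, adjusted 0.14) while those of Pfkp (p = 0.2, adjusted 0.233) and Pfkl (p = 0.5, adjusted 0.5) did. The genes that set the level of fructose 2,6-bisphosphate, the activator of this step, had 0 of 5 called by edgeR, against 26.9% of all tested genes. At an unadjusted edgeR p under 0.05, 1 of the 5 (Pfkfb3) passed, beside 5455 of all 14243 tested genes. Pfkfb3 measured 69.0 ± 6.46 and 79.5 ± 4.88 CPM (log2 fold change 0.20, edgeR adjusted p = 0.0647). It passed in edgeR without WT replicate 3 (adjusted p = 0.0270) and with the GC and length correction (0.0371).

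Aldolase splits fructose 1,6-bisphosphate, and of its isozymes Aldoc fell in the KO while Aldoa did not pass the test. Aldoa, the widely used aldolase, lies on the minus strand of chromosome 7 (126795234 to 126800751). It measured 960.1, 1056 and 936 CPM in WT and 934, 981 and 959 CPM in KO libraries. These ranges overlapped (log2 fold change -0.04 ± 0.052 SE, edgeR adjusted p = 0.624). Aldoc, the brain aldolase of astrocytes, measured 587, 633 and 586 CPM in WT and 452, 465 and 439.7 CPM in KO libraries. Aldoc fell by 24.9%, with every KO library below every WT library and a log2 fold change of -0.41 ± 0.048 (SE, edgeR adjusted p = 4.57e-05), and the call held in every alternative. Aldoc made up 24.9, 24.5 and 25.3% of aldolase counts per kilobase in WT and 20.8, 20.4 and 19.9% in KO libraries, a difference of -4.55 percentage points (exact permutation p = 0.1, adjusted 0.14). The first 60 coding bases of the 2 genes are shown with the 11 differing positions in capitals, to show how closely related isozymes still differ in sequence. Over the whole transcript, 0% of the 31-base words (31-mers) of Aldoc occur in another gene, so Aldoa and Aldoc share none. For Aldoa the share is 35.04%, found in 10 other genes of which 8 are pseudogenes.
Aldoa: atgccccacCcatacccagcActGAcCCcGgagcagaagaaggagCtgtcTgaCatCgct
Aldoc: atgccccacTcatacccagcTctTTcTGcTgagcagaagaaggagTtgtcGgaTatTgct

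**Figure D2:**
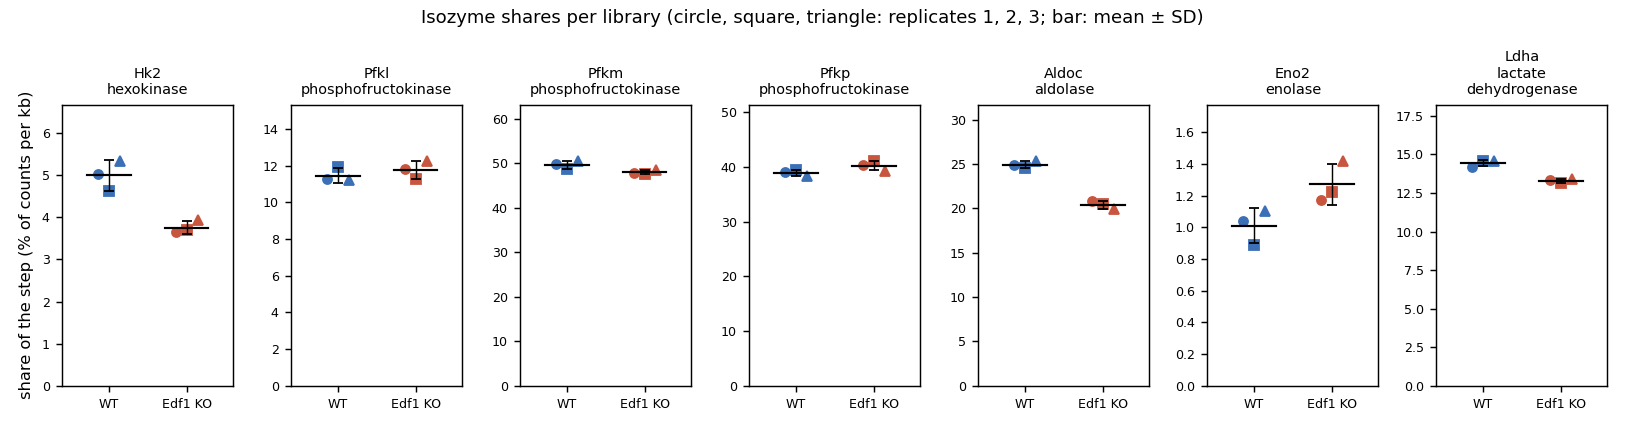
Share of 1 isozyme in the summed counts per kilobase of its step (%, axes from 0) in each library, with 1 marker per replicate and a bar for the mean ± SD (n = 3 per genotype). The WT and KO libraries are apart for Hk2, Pfkm, Aldoc, Eno2 and Ldha and overlap for Pfkl and Pfkp.

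Triose phosphate isomerase (Tpi1), which interconverts the triose phosphates, measured 362 ± 29.0 and 338 ± 7.70 CPM (SD, n = 3; log2 fold change -0.10, edgeR adjusted p = 0.232). Pgk1, the first enzyme to make ATP in the pathway, lies on the plus strand of chromosome X (106187100 to 106203699). It measured 708, 744 and 670.0 CPM in WT and 695, 706 and 671 CPM in KO libraries, with the KO libraries inside the WT range (log2 fold change -0.03 ± 0.049 SE, edgeR adjusted p = 0.653). Its testis copy Pgk2 had 0 counts in every library, which allows up to 3 counts in each. Bpgm, which makes 2,3-bisphosphoglycerate, fell from 73.2 ± 2.41 to 60.7 ± 0.31 CPM (log2 fold change -0.27 ± 0.054 SE, edgeR adjusted p = 0.00273). Pgam1, the main phosphoglycerate mutase, measured 248, 269 and 246 CPM in WT and 223, 237 and 219 CPM in KO libraries. It fell by 10.9% (log2 fold change -0.17 ± 0.053 SE, edgeR adjusted p = 0.0353), a call lost without WT replicate 1 (adjusted p = 0.065), KO replicate 1 (0.135) or KO replicate 3 (0.152) and with a correction for GC content and length (0.0894). Pgam2, Gapdhs, Eno3 and Ldhd, which are known mainly from muscle, sperm or liver, were at 2.64 to 12.8 CPM on average in WT and did not pass the test.

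Enolase makes phosphoenolpyruvate, and Eno1, on the plus strand of chromosome 4 (150236721 to 150248879), is its widely used isozyme. Eno1 measured 1062, 1126 and 1034 CPM in WT and 1124, 1187 and 1125 CPM in KO libraries, and the groups overlapped by WT replicate 2, which lay above 2 of the KO libraries. The log2 fold change was 0.09 ± 0.047 (SE, edgeR adjusted p = 0.173). Without WT replicate 2 it was 0.13 and passed (edgeR adjusted p = 0.0109). Eno2, the neuronal enolase, measured 15.4, 13.9 and 15.9 CPM in WT and 18.4, 20.3 and 22.3 CPM in KO libraries. Eno2 rose with no overlap between the groups (log2 fold change 0.43 ± 0.096 SE, edgeR adjusted p = 0.00522), from 1.01 ± 0.11% to 1.27 ± 0.13% of the Eno1 and Eno2 counts per kilobase (exact permutation p = 0.1, adjusted 0.14). Beside it, 2 of 9 tested neuron genes fell and 0 rose. Eno1b, an intron-poor copy of Eno1, rose from 18.6 ± 1.57 to 24.9 ± 2.35 CPM (log2 fold change 0.41 ± 0.094 SE, edgeR adjusted p = 0.00700). Because 88.5% of its 31-mers occur in another gene, its reads are hard to tell from those of Eno1. It had 237 to 676 counts per library against 14495 to 31780 for Eno1, so its value is uncertain.

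Pkm, the pyruvate kinase of brain and of proliferating cells, makes pyruvate and lies on the plus strand of chromosome 9 (59656368 to 59679375). Pkm measured 999.8, 1042 and 938 CPM in WT and 1056, 1121 and 1056 CPM in KO libraries. The groups did not overlap, yet the gap between WT replicate 2 and the lowest KO library was narrow and the test was not passed (log2 fold change 0.12 ± 0.050 SE, 95% interval 0.0098 to 0.23, edgeR adjusted p = 0.101). Pkm passed without WT replicate 2 (log2 fold change 0.15, edgeR adjusted p = 0.00515). The table counts the gene as a whole, so the Pkm1 and Pkm2 splice forms are not separated here, and a second annotated gene, Gm49759, covers 15.3% of its exon bases on the same strand. The liver and red cell gene Pklr had 2 to 10 counts per library and was not tested.

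At the last step, Ldha, the muscle-type subunit of lactate dehydrogenase, lies on the plus strand of chromosome 7 (46841475 to 46855627). It measured 226, 247 and 223 CPM in WT and 220, 226 and 220 CPM in KO libraries. The log2 fold change was -0.07 ± 0.052 (SE, edgeR adjusted p = 0.387), and 1 KO library lay inside the WT range. Ldhb, the heart-type subunit, measured 1007, 1070.4 and 965 CPM in WT and 1055, 1100.2 and 1046 CPM in KO libraries (log2 fold change 0.07 ± 0.049 SE, edgeR adjusted p = 0.298, or 0.0223 without WT replicate 2). Per kilobase Ldhb had the higher level in these counts, at 778 ± 40.6 CPM per kb in WT against 131 ± 7.59 CPM per kb for Ldha. Of the 31-mers of Ldhb 41.4% occur in another gene, and of those of Ldha 35.1%. Ldha made up 14.2, 14.6 and 14.6% of the step in WT and 13.3, 13.2 and 13.4% in KO libraries. That share was lower in every KO library than in every WT library, by 1.15 percentage points on average (exact permutation p = 0.1, adjusted 0.14). Neither gene passed the test alone.

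**Figure D3:**
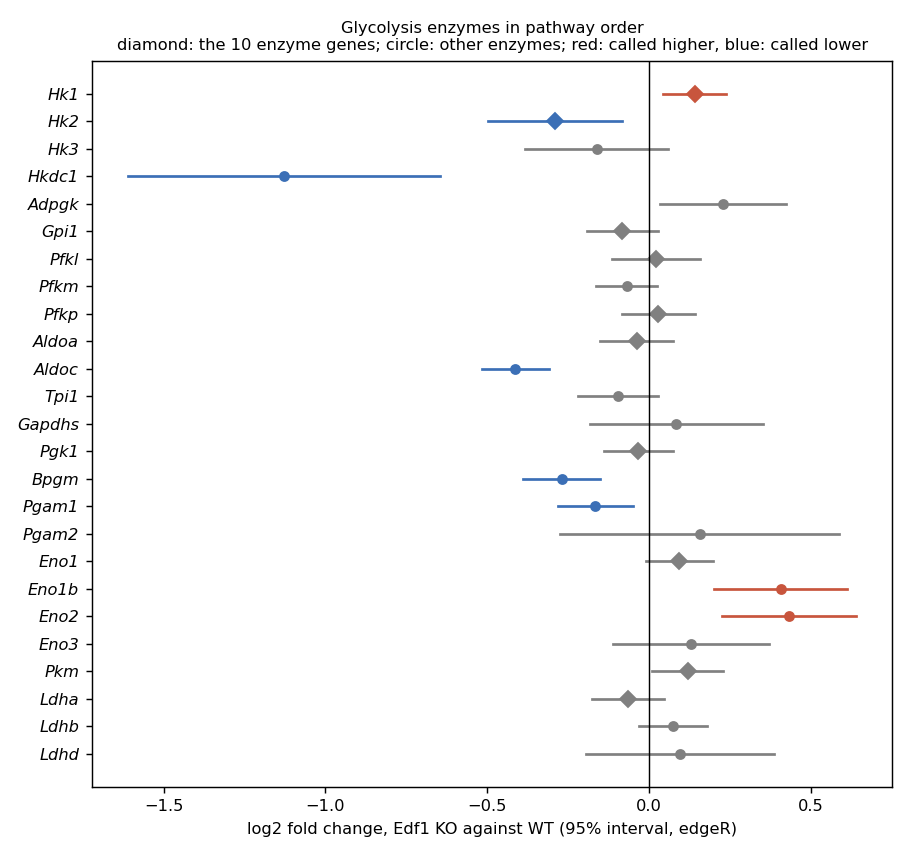
Log2 fold change (Edf1 KO against WT) with its 95% confidence interval for the tested glycolysis enzymes in pathway order, without Gapdh, whose interval is far wider. Of the 10 enzyme genes, drawn as diamonds, Hk1 (0.14) is called higher and Hk2 (-0.29) lower, while among the other enzymes Hkdc1 (-1.13) and Aldoc (-0.41) lie farthest below 0.

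Across the 16 other glycolysis enzymes tested, of 21 listed, 2 rose and 4 fell, which is 37.5% called against 26.9% among all tested genes. The median log2 fold change was 0.0021, beside 0.0029 over all tested genes. The 4 that fell were Hkdc1, Aldoc, Bpgm and Pgam1, and the 2 that rose were Eno2 and Eno1b.

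Several glycolysis genes have processed pseudogenes, copies of their mRNA pasted elsewhere in the genome, and reads from near-identical sequence can be assigned to either place. The share of a transcript's 31-mers that also occur in another annotated gene was 0% for Hk1, 0.24% for Hk2, 0.76% for Pfkl and 0.07% for Pfkp. It was 32.1% for Gpi1, 35.04% for Aldoa, 35.1% for Ldha, 50.9% for Pkm, 68.3% for Pgk1 and 77.2% for Eno1. The coefficient of variation (CV) between replicates of the 10 genes was 1.01 to 7.98% in WT and 1.61 to 4.23% in KO libraries. Among 2308 tested genes with a mean of at least 100 CPM the median CV was 5.04% in WT and 2.73% in KO. The 8 of the 10 genes above that mean had CVs of 1.01 to 6.43% in WT and 1.61 to 3.71% in KO, while Hk2 (7.98 and 4.23%) and Pfkl (7.50 and 2.69%) lie below it. The 3 genes sharing more than 50% of their 31-mers, Eno1, Pgk1 and Pkm, had CVs of 4.37 to 5.27% in WT and 2.63 to 3.48% in KO. WT replicate 2, which also had the smallest count total, was the highest WT library for 8 of the 10 genes, all but Hk1 and Hk2, and the highest of all 6 libraries for 6 of them. KO replicate 2 was likewise the highest KO library for 8 of the 10 genes. The part of these libraries in those values was not tested.

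**Figure D4:**
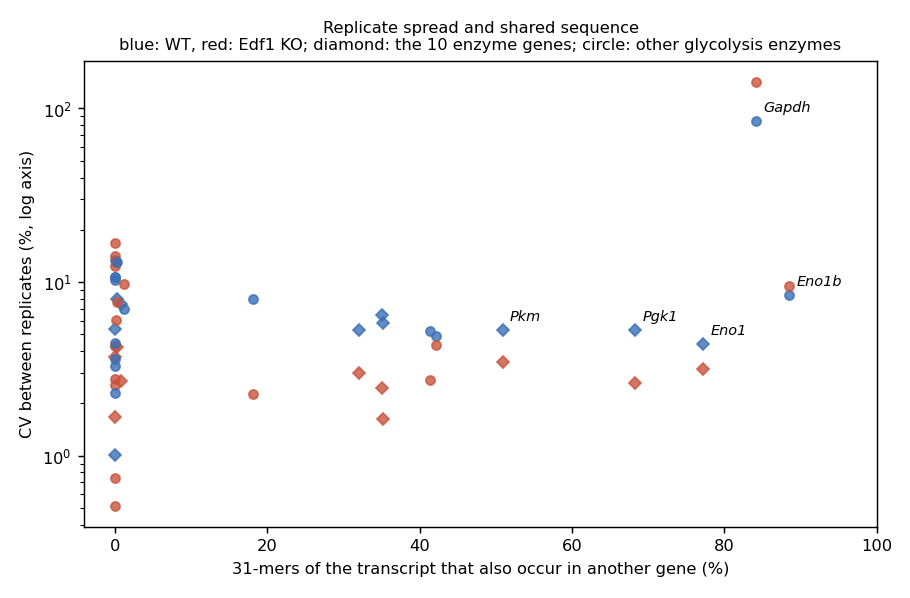
CV between the 3 replicates of each genotype (%, log axis) against the share of 31-mers found in another gene (%) for the tested glycolysis enzymes, with blue for WT, red for Edf1 KO, diamonds for the 10 enzyme genes and circles for the others. The diamonds stay between 1.01 and 7.98% at every level of sharing, and Gapdh stands far above them at 84.8% in WT and 142% in KO.

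Gapdh, the enzyme between Tpi1 and Pgk1 and a common reference gene, behaved otherwise. It measured 70.4, 4.04 and 43.7 CPM in WT and 4.42, 67.0 and 4.74 CPM in KO libraries. High and low libraries occurred in both genotypes, with a 17.4-fold range within WT and a 15.2-fold range within KO, and the log2 fold change of -0.74 had a 95% interval of -2.59 to 1.11 (edgeR adjusted p = 0.570). In both genotypes its CV was the highest of 8556 tested genes with a mean of at least 20 CPM over all 6 libraries. Without KO replicate 2 the log2 fold change was -3.15 and was called (edgeR adjusted p = 0.0195). Of its 31-mers 84.1% occur in another gene, and 318 annotated pseudogenes share at least 1 of them. Per kilobase its WT mean of 27.7 CPM per kb was near the 25.2 CPM per kb of Pfkl. Gapdh values from this table are therefore uncertain and were compared no further.

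The opening coding bases of Gapdh and Pgk1 show what such sharing looks like. The first 60 coding bases of Gapdh are identical to a stretch of the pseudogene Gm7336 and occur whole in 32 other annotated genes, while those of Pgk1 are identical in the pseudogene Gm5537 and occur whole in 1 other gene. No position differs, so none is in capitals.
Gapdh: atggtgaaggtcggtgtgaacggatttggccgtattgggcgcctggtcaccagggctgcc
Pgk1: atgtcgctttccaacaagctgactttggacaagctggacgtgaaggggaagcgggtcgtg

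A gene was taken as a copy where at least 20% of its own 31-mers occurred in the parent gene, which is not near identity. Copies with a row of their own were limited to Eno1b for Eno1 (81.8% of its 31-mers shared) and Gm29667 for Gapdh (49.8%). Adding the counts of such copies to the parent gene left 2 of the 10 genes called. Among the 10 this changed the counts of Eno1 alone, so it cannot show how copies without a row of their own affect the calls. Exons of a gene on the opposite strand cover 11.5% of the exon bases of Gpi1 (Gm26762), 5.58% of Pfkp (Pitrm1), 1.84% of Hk1 (Hk1os) and 0.86% of Aldoa (Fam57b). It is not given whether the counting used strand, so reads of these pairs may not be told apart.

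The promoters of the hexokinase genes, which moved in opposite directions, and of Ldha, a textbook target of hypoxia-inducible factors, are shown for their short motifs. Each run is the 250 bases before a RefSeq transcript start (GRCm38.p6), on the strand of the gene, with matches to ACGTG, a core bound by hypoxia-inducible factors, in capitals on either strand (read as CACGT on the other strand). The Hk2 window is chr6:82774455-82774704, the Hk1 window, 1 of 2 for that gene, is chr10:62379909-62380158, and the Ldha window, also 1 of 2, is chr7:46845554-46845803. The other Hk1 window, not printed, is chr10:62340422-62340671. For Hk1 and Ldha, counts per gene do not tell which start these cells use, so a printed window may not be the one in use.
Hk2: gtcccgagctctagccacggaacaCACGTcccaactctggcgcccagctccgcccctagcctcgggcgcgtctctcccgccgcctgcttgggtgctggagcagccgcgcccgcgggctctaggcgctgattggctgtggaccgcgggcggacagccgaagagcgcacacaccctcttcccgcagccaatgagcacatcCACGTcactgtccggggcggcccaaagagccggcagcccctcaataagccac
Hk1: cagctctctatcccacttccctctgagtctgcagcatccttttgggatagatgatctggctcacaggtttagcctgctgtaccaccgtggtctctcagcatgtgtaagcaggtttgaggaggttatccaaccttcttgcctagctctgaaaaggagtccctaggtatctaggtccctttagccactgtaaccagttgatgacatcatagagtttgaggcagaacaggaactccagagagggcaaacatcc
Ldha: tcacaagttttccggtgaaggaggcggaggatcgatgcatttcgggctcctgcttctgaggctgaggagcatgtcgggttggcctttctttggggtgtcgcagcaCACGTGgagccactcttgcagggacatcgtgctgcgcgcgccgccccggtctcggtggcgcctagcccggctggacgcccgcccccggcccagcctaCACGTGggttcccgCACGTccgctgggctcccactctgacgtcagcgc

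The Hk2 window holds 2 matches, both Hk1 windows hold 0, and this Ldha window holds 5. Of these 5, 4 come from 2 copies of CACGTG, the E-box, since each copy contains ACGTG on both strands. The other Ldha window (46846832 to 46847081), not printed, holds 0, and the printed one was picked because it holds matches. ACGTG occurred in 6 of the 17 windows of the 10 genes (35.3%), in Hk2, Aldoa, Pgk1, Pkm and Ldha, and in 16.6% of 32851 windows of the same length. Both Aldoa windows with a match overlap (126799179 to 126799428 and 126799255 to 126799504), so the same site may be counted in each. CACGTG occurred in 1 of the 17 windows (5.88%), against 6.02% of all windows. Of the 5 genes with ACGTG, Hk2 fell and the other 4 did not pass the test. A match of letters is a description and does not show binding. Only ACGTG and CACGTG were searched, so the 0 matches for Hk1 do not cover other forms of the core, such as GCGTG.

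The lists below surround glycolysis, and in all of them together 28 of 103 tested genes were called (27.2%, 13 higher and 15 lower, with the other glycolysis enzymes included). That share is close to the 26.9% called among all tested genes (12.7% higher and 14.2% lower), so the counts below describe single genes and not the lists. Among carriers of glucose and lactate, 2 of 11 rose and 2 fell (36.4% called). Slc2a3, the neuronal glucose carrier GLUT3, rose from 18.5 ± 1.68 to 26.4 ± 2.73 CPM (SD, n = 3; log2 fold change 0.51 ± 0.099 SE, edgeR adjusted p = 0.00232). Slc2a1, the general glucose carrier GLUT1, fell from 279 ± 19.9 to 243 ± 2.59 CPM (log2 fold change -0.20, edgeR adjusted p = 0.0183). The lactate carriers also moved apart, with Slc16a7 (MCT2) rising from 4.08 ± 0.83 to 6.40 ± 0.60 CPM (log2 fold change 0.62, edgeR adjusted p = 0.0154) and Slc16a1 (MCT1) falling from 371 ± 15.4 to 331 ± 8.91 CPM (log2 fold change -0.17, edgeR adjusted p = 0.0219). Without 1 library or with other settings Slc2a1, Slc16a1 and Slc16a7 had adjusted p-values of up to 0.0828, 0.0937 and 0.0682.

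Where pyruvate enters mitochondria, 1 of 14 genes rose and 1 fell (14.3% called). Pdp1, the phosphatase that activates pyruvate dehydrogenase, rose from 284 ± 4.82 to 327 ± 7.31 CPM (log2 fold change 0.21, edgeR adjusted p = 0.00424). Dlat, the acetyltransferase core of that complex, fell from 76.9 ± 0.25 to 68.3 ± 2.30 CPM (log2 fold change -0.17, edgeR adjusted p = 0.0336, up to 0.137 without 1 library). Of the gluconeogenesis genes 3 of 8 were tested and 1 rose. This was Pcx, pyruvate carboxylase, which is typical of astrocytes in brain, with 241 ± 11.2 and 284 ± 9.63 CPM (log2 fold change 0.24, edgeR adjusted p = 0.00412). Of the 8 listed, Pck1, G6pc and G6pc2 had 3 counts or fewer in every library.

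In the pentose phosphate pathway, the branch that makes NADPH and ribose, 2 of 8 tested genes fell and 0 rose (25% called). Both act in its sugar-exchanging arm, with Taldo1 at 198 ± 6.18 and 171 ± 0.95 CPM (log2 fold change -0.21, edgeR adjusted p = 0.00566) and Tkt at 352 ± 23.9 and 302 ± 9.06 CPM (log2 fold change -0.22, edgeR adjusted p = 0.0102, up to 0.0653 in the alternatives). In the glycogen, glycerol phosphate and serine branches 2 of 16 genes rose and 2 fell (25% called). Psph, the last enzyme of serine synthesis, fell from 77.6 ± 8.82 to 57.9 ± 1.21 CPM (log2 fold change -0.42, edgeR adjusted p = 0.00131). Pygb, the brain glycogen phosphorylase, fell from 885 ± 25.5 to 806 ± 20.8 CPM (log2 fold change -0.13, edgeR adjusted p = 0.0405), and Gpd1l rose (log2 fold change 0.30, edgeR adjusted p = 0.0198). Pygm, the muscle form, rose at a mean of only 0.83 to 1.63 CPM (log2 fold change 1.05, edgeR adjusted p = 0.0430). Adjusted p-values of Pygb, Gpd1l and Pygm reached 0.171, 0.0827 and 0.202 in the alternatives.

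Hypoxia-inducible factors and Myc are the best known activators of glycolysis genes. Of 11 tested genes for these factors and their regulators 1 was called (9.09%, against 26.9% of all tested genes). Epas1, which encodes HIF-2 alpha and is prominent in endothelial and glial cells, rose from 48.1 ± 4.10 to 69.96 ± 2.85 CPM (log2 fold change 0.53 ± 0.069 SE, edgeR adjusted p = 0.000105). Of 19 tested hypoxia targets outside glycolysis 4 rose and 4 fell (42.1% called, against 26.9% of all tested genes), with a median log2 fold change of -0.0033. Vegfa, a vascular growth factor, rose from 13.2 ± 1.75 to 21.7 ± 1.29 CPM (log2 fold change 0.70, edgeR adjusted p = 0.000256), and Car9, a carbonic anhydrase of low-oxygen cells, fell from 12.3 ± 0.71 to 7.33 ± 0.32 CPM (log2 fold change -0.74, edgeR adjusted p = 0.000265). Ero1a and P4ha1, which act in protein folding and collagen processing, rose (log2 fold changes 0.40 and 0.23, edgeR adjusted p = 0.00273 and 0.00360). Beside Epas1 and Vegfa stand the higher summed levels of the fibroblast, mural and endothelial genes given above, whose part in these values was not tested.

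**Figure D5:**
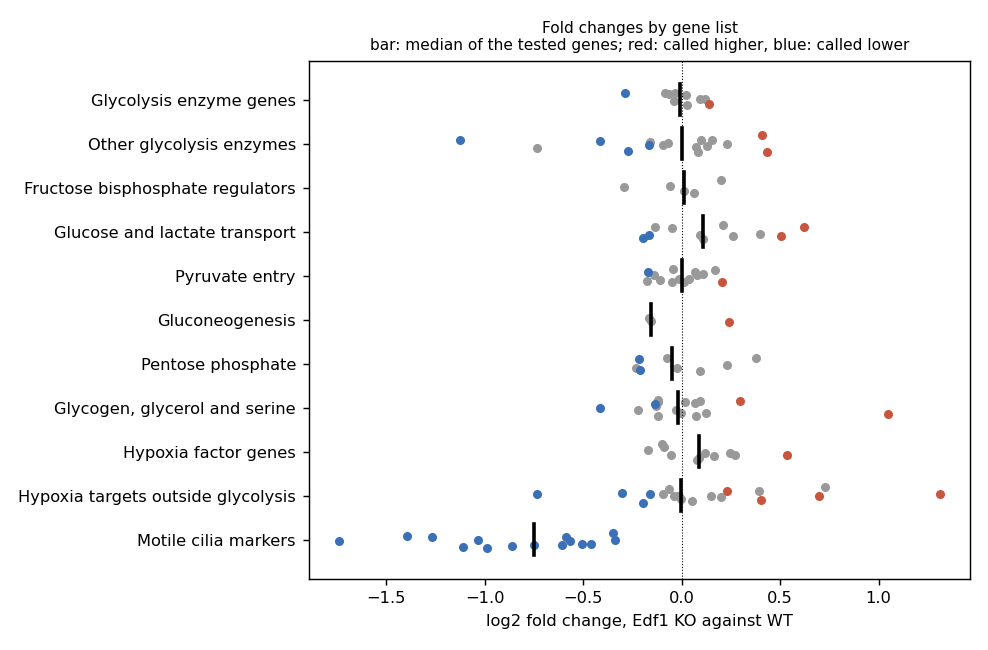
Log2 fold change (Edf1 KO against WT) of each tested gene in the 10 enzyme genes, the lists around glycolysis and, in the last row, the motile cilia markers. Red marks genes called higher, blue genes called lower, and a bar the list's median. Apart from the motile cilia markers, the medians run from -0.16 to 0.11, and each list with several calls, except the pentose phosphate genes, holds calls in both directions. The motile cilia markers have a median of -0.75, with all 15 called lower.

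The 5 tested genes outside the 10 whose log2 CPM followed the summed level of the 10 most closely over the 6 libraries were Fcsk (Pearson r = 0.993), Rab7 (0.989), Misp3 (0.984), Fcf1 (0.983) and Gpr180 (0.980). These correlations were picked as the highest of all tested genes over 6 points that share their depth and scaling. Like the summed level itself, Fcsk, Rab7, Misp3, Fcf1 and Gpr180 were highest in replicate 2 of each genotype, and none passed the test between genotypes.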

How the data were processed

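RNA from 6 samples was sequenced with MGIEasy mRNA libraries, per the labels' protocols. The authors deposited whole-number read counts per gene symbol. FastQC 0.11.2, cutadapt 1.11, HISAT2 2.1.0 and build GRCm38 are named in the submitters' processing notes. The counting program, its annotation, strand setting and treatment of reads that map to several places are not given in the sources used here.

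The deposited counts were analysed in R 4.3.3 with edgeR 4.0.16. filterByExpr left 14243 of 22851 genes, and 4913 genes had 0 counts in every library. TMM scaling, a quasi-likelihood fit of all 6 libraries without covariate and Benjamini-Hochberg adjustment over all tested genes at 0.05 gave the calls. CPM used TMM-scaled library sizes, and log2 CPM a prior count of 2. Standard errors are the log2 fold change over the square root of F. Isozyme shares and the summed level were tested by exact permutation. Intervals are at 95% confidence. A floor of 3 counts covers counting error only.

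The 10 genes and all lists were chosen with earlier results of these data known. Named genes are the 10, every tested glycolysis enzyme, up to 4 genes with the lowest p per list (the uncalled ones mostly as counts), Edf1 and the 5 most alike genes. Of the symbols, 22146 matched GENCODE M21, used for positions, lengths and 31-mers. Promoter windows came from RefSeq, and no protein sequence was used here.

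Alternatives were DESeq2 1.42.0, limma 3.58.1 voom, DESeq2 size factors, library size alone and other count filters. A replicate block, leaving each library out in turn and a threshold of 0.01 were also used. A GC and length correction used splines with 4 degrees of freedom, with values for 98.98% of tested genes. Counts of the copies with a row of their own were added to the parent gene, and shares were also taken without length scaling. Fits were also run on simulated data with larger changes than those of Hk1 and Hk2, so that run does not bear on calls of their size.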

Additional observations from a re-analysis of the deposited data

How the results depend on the processing

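The count of 2 called genes among the 10 became 1 under DESeq2 (Hk1), 4 with the GC and length correction, 0 at an adjusted p under 0.01 and 0 to 4 when 1 library was left out. It was 0 without each of the libraries other than WT replicate 2 and 4 without WT replicate 2, and the cause was not tested. At an unadjusted p under 0.05, 5455 of all tested genes passed. Over all genes 3833 calls became 2213 at 0.01, 4613 with the GC and length correction and 2658 to 4340 without 1 library, and 28 pathway calls became 18, 40 and 19 to 34. With the replicate block 3 of the 10 were called, Pkm joining at an adjusted p of 0.0461, beside 4065 genes in all and 30 pathway genes. The labels do not say that a number marks a shared litter or day. Deviations of same-numbered libraries correlated at 0.037 to 0.069 and those of differently numbered ones at -0.072 to 0.029, so every library correlated best with its own number, a hint from the data and not from the design. The summed level differed by -12.7 to 241.9 CPM without 1 library. Hk1 and Hk2 kept their directions in every alternative, and Hk1 had adjusted p-values of 0.0062 to 0.137 and Hk2 of 0.0084 to 0.137. Small log2 fold changes changed sign. With the GC and length correction they were -0.0103 for Pfkl, 0.0303 for Aldoa, 0.0505 for Pgk1 and 0.0199 for Ldha, and Eno1, Pkm, Ldhb, Adpgk, Pfkfb3, Rpia and Egln3 passed (adjusted p = 0.0047, 0.0052, 0.0005, 0.0269, 0.0371, 0.0154 and 0.0196). Without WT replicate 2, Eno1, Pkm, Ldhb, G6pc3, Rpia and Egln3 passed, and without WT replicate 3, Pfkfb3. Leaving out 1 library gave -0.0140 to 0.0805 for Pfkl, -0.0032 to 0.0685 for Pfkp, -0.0709 to 0.0139 for Aldoa, -0.0694 to 0.0027 for Pgk1, -0.0066 to 0.18 for Ldhd, -0.0051 to 0.20 for Eno3, -0.55 to 0.0301 for Pfkfb1, -0.0420 to 0.15 for Pfkfb2 and -0.22 to 0.0363 for Tigar. Aldoc, Bpgm, Hkdc1, Eno1b and Eno2 kept their calls at 0.05 in every alternative that tested them. All 7 isozyme shares kept their direction. Counts were low for Hkdc1 and Pygm, and Hk2 has the fewest counts of the 10.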
